A study of Homo sapiens with 3 samples.

Results

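The replication-dependent histone gene cluster on the short arm of human chromosome 6 (band 6p22) was examined for regions occupied by ZMYND11 and ETS2 in DU145 cells. DU145 is an established prostate adenocarcinoma line derived from a brain metastasis. Protein-bound DNA had been enriched with an antibody and sequenced (ChIP-seq) in 3 libraries, with 1 library per group. The first was a ChIP of ZMYND11, whose other name is BS69, from parental DU145 cells labelled WT. The second was a ChIP of ZMYND11 from DU145 cells with an ETS1 knockout, and the third a ChIP of ETS2 from DU145 cells also with an ETS1 knockout. Whether the knockout cells were 1 clone or a pool is not given in the sources used here. Members were all listed regions of chromosome 6 (hg19) with a midpoint in the 1.9 Mb that begin at position 26000000 and end at 27900000. The window was divided into a first part of 0.3 Mb, a middle part of 0.7 Mb and a last part of 0.9 Mb. There were 53 members among the 17232 regions of the 3 lists: 44 of 15676 knockout ZMYND11 regions, 9 of 1020 knockout ETS2 regions, and 0 of 536 parental ZMYND11 regions.

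Replication-dependent histone genes supply the core histones H2A, H2B, H3 and H4 and the linker histone H1 that package newly copied DNA in S phase. They are short and mostly without introns, and their messenger RNAs end in a stem-loop instead of a poly(A) tail. Their transcription takes place in the histone locus body, a nuclear compartment organised by the coactivator NPAT. The cluster also holds many transfer RNA genes, which are read by RNA polymerase III. ETS1 and ETS2 share a DNA-binding domain and are switched on downstream of Ras. ZMYND11 is a co-repressor that reads methylated histone H3 in chromatin.

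No gene could be assigned to a region, since the files were on hg19 and the RefSeq gene table at hand is on GRCh38.p14, and coordinates were not converted. The name of the cluster was for the same reason not checked against an annotation of the regions. The table was used for names and gene order alone. It lists 55 coding histone genes in 2 runs, with 6 genes for H1, 12 for H2A, 15 for H2B, 10 for H3 and 12 for H4. The first run goes from H2AC1 to H4C8 with 34 genes, and the second from H2BC11 to H2BC17 with 21 genes. Between the runs it lists 9 coding genes, among them 6 butyrophilin genes (such as BTN3A2 and BTN1A1, known from immune regulation and milk fat secretion), HMGN4, ABT1 and ZNF322. It lists 47 transfer RNA genes between the runs, 51 within the second run and 0 within the first. The histone genes have a median length of 489 bp, and the knockout ZMYND11 members a median width of 497 bp, so that 1 region is about as wide as 1 gene. This width is not particular to the cluster, since the median over the whole knockout ZMYND11 list was 496 bp.

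Promoters were described for the gene family as a whole, because the genomic sequence under the listed regions was not analysed here. For 50 of the 55 genes, RefSeq's table of GRCh38.p14 promoters gave the 250 bases before the gene start. The letters CCGGAA, the core that ETS factors bind together with the flank many of them prefer, were searched on both strands. They stood in 3 of the 50 promoters (6%), against 14.8% of 27305 promoters of all genes. The 3 are shown here because the study concerns ETS factors, 5′ to 3′ in the direction of the gene, with the matching letters in capitals. All 3 match as the reverse complement TTCCGG, and their GRCh38.p14 positions cannot be set beside the hg19 positions of the regions.
H1-6 (linker histone of the testis, GRCh38.p14 chr6:26108136-26108385, minus strand): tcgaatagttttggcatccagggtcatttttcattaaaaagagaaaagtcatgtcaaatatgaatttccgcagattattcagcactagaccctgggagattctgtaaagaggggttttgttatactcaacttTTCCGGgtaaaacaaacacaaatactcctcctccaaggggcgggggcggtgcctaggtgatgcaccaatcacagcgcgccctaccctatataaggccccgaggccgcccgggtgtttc
H4C8 (core histone H4, GRCh38.p14 chr6:26285535-26285784, minus strand): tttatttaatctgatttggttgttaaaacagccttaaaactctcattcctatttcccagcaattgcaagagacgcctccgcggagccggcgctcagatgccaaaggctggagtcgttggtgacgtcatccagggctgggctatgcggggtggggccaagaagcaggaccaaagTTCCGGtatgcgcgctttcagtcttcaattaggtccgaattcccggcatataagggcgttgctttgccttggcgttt
H4C9 (core histone H4, GRCh38.p14 chr6:27139032-27139281, plus strand): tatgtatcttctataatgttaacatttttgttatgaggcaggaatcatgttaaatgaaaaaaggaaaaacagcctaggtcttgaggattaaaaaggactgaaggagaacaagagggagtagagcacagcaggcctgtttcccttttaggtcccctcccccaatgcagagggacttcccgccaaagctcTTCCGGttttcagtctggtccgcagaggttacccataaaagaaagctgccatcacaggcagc
The match began 118 bases before the start in H1-6, 77 in H4C8 and 62 in H4C9.

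Of 4 other sets of promoter letters, 3 stood in a larger share of the histone family than of promoters at large. The CCAAT box (CCAAT, both strands) stood in 43 of 50 histone promoters (86%) against 33.0% of all promoters. It stood in every H1, H2A, H2B and H3 promoter tested (6, 11, 15 and 8), but in 3 of 10 H4 promoters. The TATA box (TATAAA, gene strand) stood in 28 (56%) against 7.17%. The octamer (ATTTGCAT, both strands), which POU-domain factors bind, stood in 22 (44%) against 1.66%, and 21 of the 22 were H2A or H2B genes (9 of 11 and 12 of 15). The AP-1 letters (TGANTCA, both strands) stood in 1 promoter (2%) against 6.6%. A match of letters is a description of the sequence and not a binding site.

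In ETS1-knockout cells both ZMYND11 and ETS2 were listed more densely in the histone cluster than on the rest of chromosome 6, and in parental cells ZMYND11 was not listed there. Knockout ZMYND11 had 23.2 regions per Mb in the cluster (95% exact Poisson interval 16.8 to 31.1) and 3.38 per Mb on the rest of the chromosome. The density was 6.86-fold higher (interval 4.93 to 9.32), and the cluster held 7.18% of the 613 regions on the chromosome. ETS2 had 4.74 regions per Mb (interval 2.17 to 8.99) against 0.237 on the rest of the chromosome, 19.9-fold higher (interval 8.51 to 41.8), or 18.4% of its 49 regions there. The ETS2 interval is wide because it rests on 9 regions, and the intervals of the 2 factors overlap. There was no test, since each list came from 1 library and neighbouring regions are not independent. The intervals cover counting error alone, and no value here has a replicate error.

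The rest of the chromosome is uneven, so the cluster was also set beside the 90 other windows of 1.9 Mb on chromosome 6. For ETS2 the cluster held the highest number, with 9 regions, and the next 2 windows, 5.7 and 3.8 Mb further on, held 7 and 6. A further 73 of the 90 windows held 0 ETS2 regions. For knockout ZMYND11 the cluster ranked 4, with 44 regions against 61 in the highest window and a median of 3. The windows that were dense for one factor were thus largely dense for the other, and the cluster ranked 1 for ETS2 and 4 for ZMYND11.

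**Figure D1:**
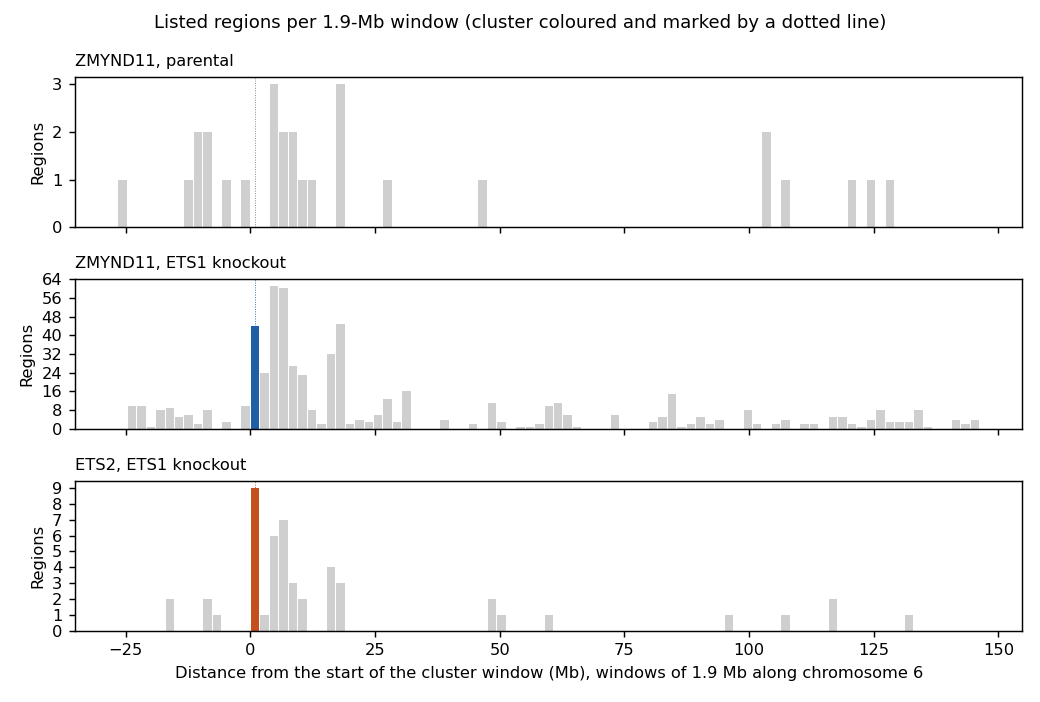
Number of listed regions (y axis) in each 1.9-Mb window along chromosome 6 (x axis, distance in Mb from the start of the histone cluster) for the 3 libraries, with the cluster coloured and marked by a dotted line. The cluster holds 0 parental ZMYND11, 44 knockout ZMYND11 and 9 ETS2 regions, and the tallest grey bars for knockout ZMYND11 reach 61 and 60.

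The balance of the 2 factors was also set beside that of the chromosome. In the cluster 9 of 53 knockout regions were ETS2 regions (17.0%, 95% exact binomial interval 8.07 to 29.8%). On the rest of chromosome 6 the share was 40 of 609 (6.57%, interval 4.73 to 8.84%), and over both whole lists it was 6.11%. This is 4.89 ZMYND11 regions for each ETS2 region in the cluster and 14.2 on the rest of the chromosome. The intervals overlap slightly, and the difference was not tested.

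Parental ZMYND11 had 28 regions on chromosome 6 and 0 in the cluster (exact binomial interval 0 to 12.3%). The nearest were at chr6:24741491-24741985, 1258 kb before the window, and at chr6:30646618-30647115, 2747 kb after it. With so short a list an empty window is common: 71 of the 90 other windows of the same size were also empty. The share of 7.18% seen for the whole knockout ZMYND11 list lies within the parental interval. The knockout list was much longer, and a difference in list length can come from depth, precipitation or calling as well as from occupancy, which cannot be told apart here. Among the first 536 lines of the knockout list, the length of the parental list, 32 regions lay on chromosome 6 and 9 of these in the cluster (28.1%, interval 13.7 to 46.7%), which is above the parental interval. This second comparison uses only the beginning of the knockout list, beside a complete parental list. The answer thus depends on how much of the knockout list is used, and an absence of ZMYND11 from the cluster in parental cells is not shown. The place of a region is its line in the deposited list, and the authors' order has no stated meaning. With no parental region in the window, no member could overlap one. On the rest of chromosome 6, 0 of 569 knockout ZMYND11 regions and 1 of 40 ETS2 regions did (0.357% and 1.76% of the whole lists).

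Along the cluster, ETS2 was listed only in the outer parts, while ZMYND11 was listed throughout. In the first part there were 11 knockout ZMYND11 and 6 ETS2 regions, or 36.7 and 20 per Mb. In the middle part there were 13 ZMYND11 regions (18.6 per Mb) and 0 ETS2 regions (exact Poisson interval 0 to 5.27 per Mb). In the last part there were 20 ZMYND11 and 3 ETS2 regions, or 22.2 and 3.33 per Mb, so that the ETS2 density of the last part lies within the interval of the middle part. All 9 ETS2 members (interval 66.4 to 100%) and 31 of the 44 ZMYND11 members (70.5%, interval 54.8 to 83.2%) thus lay in the outer parts, and these intervals overlap. All 13 middle ZMYND11 regions were over 100 kb from the nearest ETS2 midpoint, with a median of 363 kb. In the first part 2 of 11 and in the last part 5 of 20 were as far. The middle distances largely restate that this part held 0 ETS2 regions. Neighbouring ETS2 midpoints on the rest of chromosome 6 were themselves a median of 619 kb apart.

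The places of ZMYND11 members also followed the 3 parts. Median places were 434 of 15676 in the first part, 8241 in the middle and 2787 in the last part. Of the 11 members in the first part, 8 were in the first 10% of the list, as were 8 of the 20 in the last part and 1 of the 13 in the middle. Together 17 of 44 members (38.6%, interval 24.4 to 54.5%) stood in the first 10%, which holds 10% of the list by construction, and 60 of 569 (10.5%) on the rest of chromosome 6 did. The median member stood at 25.6% of the list (interval 7.61 to 45.3%), against 53.5% on the rest of the chromosome.

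**Figure D2:**
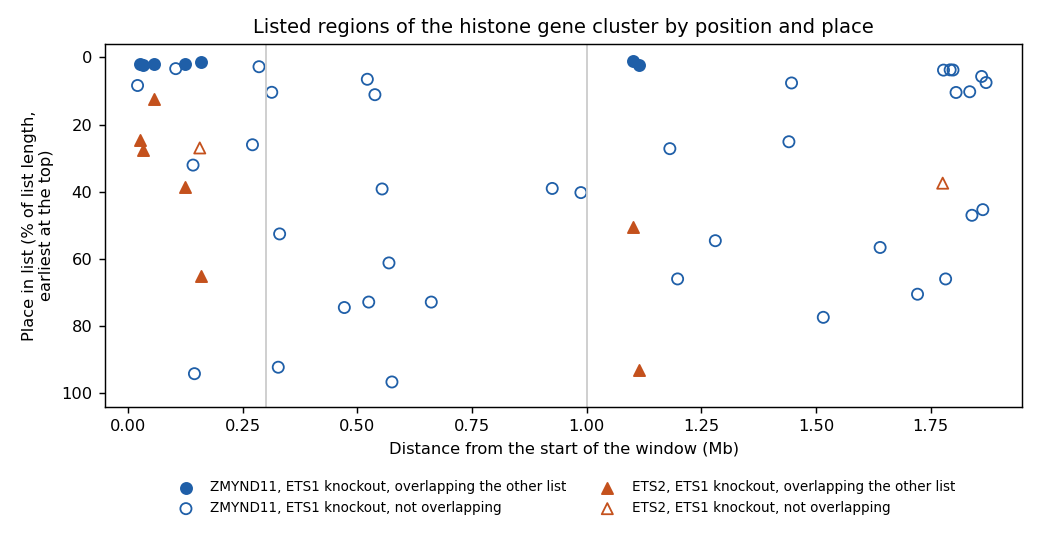
Each member's position (x axis, Mb from the start of the window) and its place as a percent of the length of its list (y axis, earliest at the top), with grey lines at the borders between the 3 parts. Filled symbols overlap a region of the other knockout list: the 7 filled circles are the 7 highest circles, and the middle part holds open circles alone. The lists differ in length, so heights of circles and triangles cannot be compared with each other.

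The 10 members first in the knockout ZMYND11 list came from the outer parts of the window, 7 from the first part and 3 from the last. They were chr6:27100149-27100649 (place 162), chr6:26158190-26158689 (place 235), chr6:26056321-26056822 (place 289), chr6:26123994-26124494 (place 294), chr6:26026911-26027408 (place 314), chr6:26031957-26032456 (place 331) and chr6:27114411-27114905 (place 375), followed by chr6:26285454-26285953 (place 434), chr6:26103894-26104395 (place 524) and chr6:27792141-27792625 (place 581). The first 7 of them are the 7 that overlapped an ETS2 region, and none of the later 37 members did. At the other end of the list stood chr6:26327432-26327926 (place 14465), chr6:26144729-26145193 (place 14766) and chr6:26575245-26575734 (place 15153). The second of these lies in the first part, among some of the earliest members, and the other 2 lie in the middle part.

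Read by position, the members opened with chr6:26020694-26021190 (place 1311) and closed with chr6:27870425-27870913 (place 1174). The middle part went from chr6:26313254-26313755 (place 1629) to chr6:26987204-26987703 (place 6311). The first part ended at the region of place 434, and the last part began at the region of place 162. Of 19 bins of 100 kb, 15 held a knockout ZMYND11 region and 4 held an ETS2 region.

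Of the 44 ZMYND11 members, 30 fell into 4 dense blocks, that is, bins of 100 kb with at least 4 ZMYND11 regions, neighbouring bins joined. This rule was chosen after the positions were seen. The first 0.2 Mb of the window held 9 ZMYND11 regions, 7 of them in the first 10% of the list, and 6 ETS2 regions. From 0.5 to 0.6 Mb, in the middle part, there were 6 ZMYND11 regions, 1 of them in the first 10%, and 0 ETS2 regions. From 1.1 to 1.2 Mb there were 4 ZMYND11 regions, 2 of them in the first 10%, and 2 ETS2 regions. From 1.7 to 1.9 Mb there were 11 ZMYND11 regions, 5 of them in the first 10%, and 1 ETS2 region. Overlaps of the 2 factors numbered 5, 0, 2 and 0 in the same order, while 3.71% of the whole knockout ZMYND11 list overlapped an ETS2 region. At that share, 0 overlaps among 6 or 11 regions are no result about these blocks. ZMYND11 was thus densely listed in the middle part as well. The counts of ETS2 regions per block, from 0 to 6, are small, and differences between blocks were not tested.

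Neighbouring ZMYND11 midpoints in the cluster were a median of 16.9 kb apart, from 2.55 to 264 kb, against a median of 24.3 kb on the rest of the chromosome. Within 10 kb of each other lay 14 of 43 neighbouring pairs (32.6%, interval 19.1 to 48.5%) and 199 of 569 on the rest of the chromosome (35.0%, interval 31.1 to 39.1%). The observed share of close neighbours was thus not larger in the cluster. Its interval reaches 48.5%, so a larger share is not excluded, and the difference was not tested. ETS2 midpoints in the cluster were a median of 28.1 kb apart, against 619 kb on the rest of the chromosome.

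Of the 9 ETS2 members, 7 shared at least 1 bp with a ZMYND11 region of the knockout cells (77.8%, interval 40.0 to 97.2%), against 57.1% of the whole ETS2 list. On the rest of chromosome 6, 20 of 40 did (50%, interval 33.8 to 66.2%). The intervals overlap, that of the cluster is wide because it rests on 9 regions, and the difference was not tested.

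The first part held 5 of the overlaps. At chr6:26027112-26027609 the ETS2 region (place 251) met the ZMYND11 region of place 314 over 296 bp. At chr6:26031928-26032421 the ETS2 region (place 280) met that of place 331 over 464 bp. The earliest ETS2 member, chr6:26056032-26056529 (place 127), met that of place 289 over 208 bp, the shortest overlap of the 7. This pair had the largest distance between midpoints, 291 bp. Further on, chr6:26124107-26124606 (place 395 for ETS2) met that of place 294 over 387 bp. The last pair of the first part was chr6:26158219-26158713 (place 665 for ETS2), which met that of place 235 over 470 bp, the longest overlap, with midpoints 26.5 bp apart.

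The last part held 2 overlaps. The ETS2 region chr6:27100190-27100690 (place 515) met the ZMYND11 region of place 162, the earliest ZMYND11 member, over 459 bp. The ETS2 region chr6:27114535-27115036 (place 949), the last of the ETS2 members, met that of place 375 over 370 bp. Over the 7 pairs the midpoints were a median of 112.5 bp apart, against 140 bp over the 575 pairs outside the cluster. The ETS2 midpoint lay at the higher coordinate in 5 pairs and at the lower in 2.

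The remaining 2 ETS2 members had a ZMYND11 region close by without overlap. One of them, chr6:26156291-26156787 (place 275), ended 1403 bp before the ZMYND11 region of place 235, which overlapped the ETS2 region of place 665. The closest neighbours among ETS2 members were thus a pair 1.93 kb apart, of which the one listed later carried the overlap. The other, chr6:27775903-27776403 (place 382), ended 1244 bp before chr6:27777647-27778146 (place 593). The regions of places 382 (ETS2) and 593 (ZMYND11) lie inside the last dense block, and the ETS2 region of place 275 lies inside the first.

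**Figure D3:**
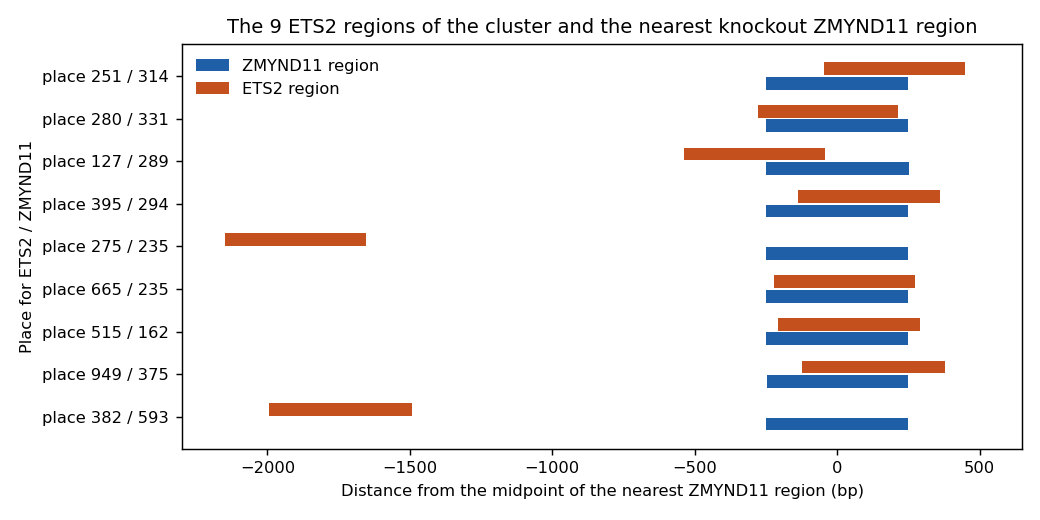
The 9 ETS2 regions of the cluster (orange) and the nearest knockout ZMYND11 region (blue), in order of position, drawn in bp from the ZMYND11 midpoint and named by their places in the ETS2 and ZMYND11 lists. In 7 rows the bars overlap by 208 to 470 bp, in 2 rows the ETS2 bar ends 1403 and 1244 bp before the ZMYND11 bar, and the ZMYND11 region of place 235 is drawn in 2 rows.

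Seen from ZMYND11, 7 of 44 members (15.9%, interval 6.64 to 30.1%) overlapped an ETS2 region, against 3.71% of the whole list and 20 of 569 (3.51%, interval 2.16 to 5.38%) on the rest of chromosome 6. The share moved with place. Within the first 10% of the list it was 7 of 17 in the cluster (41.2%, interval 18.4 to 67.1%) and 457 of 1550 outside it (29.5%, interval 27.2 to 31.8%), and 18 of 60 on the rest of chromosome 6 (30%, interval 18.8 to 43.2%). In the later 90% it was 0 of 27 (interval 0 to 12.8%) and 118 of 14082 (0.838%, interval 0.694 to 1.0%). Within each part of the list the cluster's interval held the value found elsewhere. These intervals are wide and the split by place is coarse, so they cannot show that cluster and other regions of like place are the same. Whether the early places of its members account for the higher share over the cluster as a whole was not tested.

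**Figure D4:**
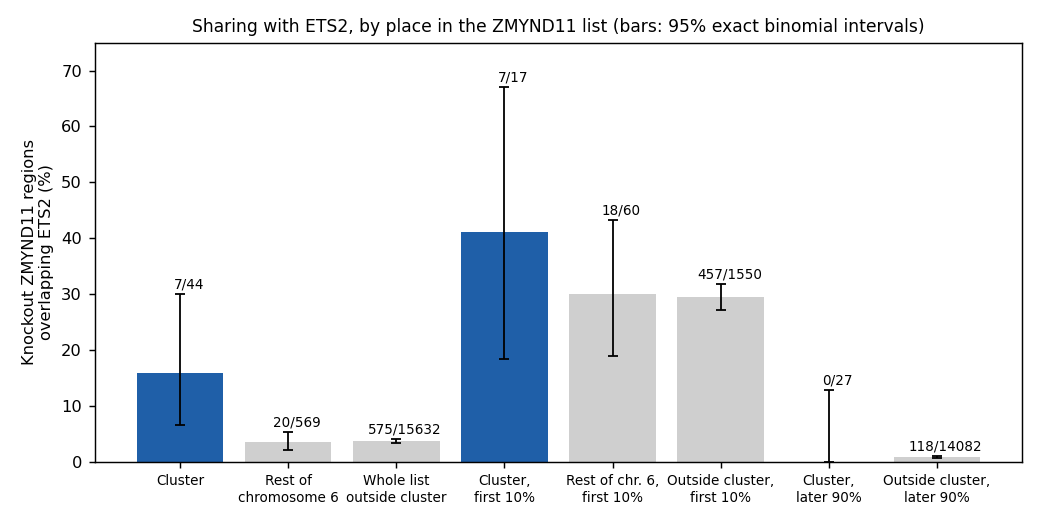
Percent of knockout ZMYND11 regions that overlap an ETS2 region (y axis) in the cluster (blue) and elsewhere (grey), over the whole list and split by place, with 95% exact binomial intervals and the counts above each bar. The cluster is at 15.9% against 3.51% on the rest of chromosome 6, but at 41.2% against 30% within the first 10% of the list, where the intervals overlap.

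ETS2 members were at places 127 to 949 of 1020, with a median of 382 (37.5% of the list, interval 24.6 to 65.2%), and 0 of 9 were in the first 10% (interval 0 to 33.6%), which holds 10% of the list. On the rest of chromosome 6 the median was at 54.5%. Among the 7 shared regions, ZMYND11 places ran from 162 to 375 and ETS2 places from 127 to 949, with a median of 395. Regions outside the cluster that were shared and had ZMYND11 places in the same range numbered 106. Their ETS2 places had a median of 273.5 and ran from 20 to 963, and 18 of them were in the first 10% of the ETS2 list. Of the 7 cluster regions 0 were in that first 10%, and this difference was not tested. The 7 lay within the spread of the others, but that spread covers nearly the whole ETS2 list of 1020, so this says little about the cluster.

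**Figure D5:**
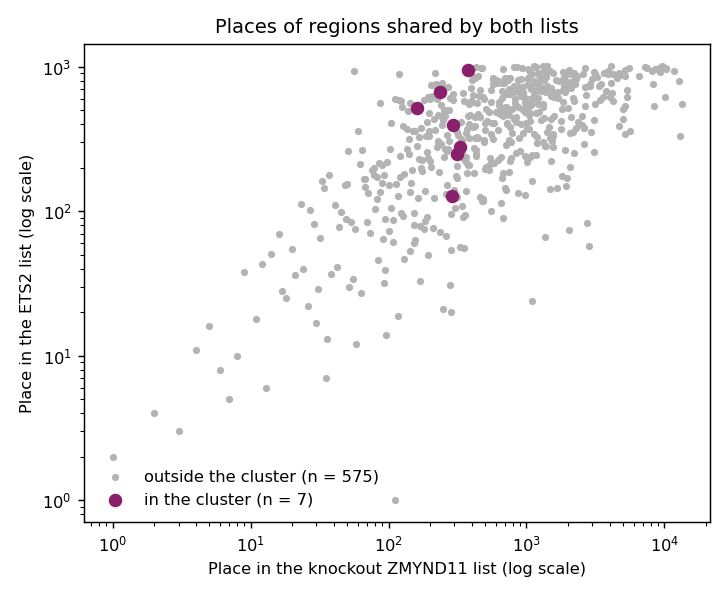
Place in the ETS2 list (y axis, log scale) against place in the knockout ZMYND11 list (x axis, log scale) for regions shared by both, 575 outside the cluster (grey) and 7 in the cluster (purple). The 7 cluster points fill a narrow range of ZMYND11 places, 162 to 375, and a wide range of ETS2 places, 127 to 949, within the grey points.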

How the data were processed

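ChIP-seq regions of 3 libraries were analysed, 1 library per group. The authors deposited 1 list per library, with chromosome, start and end of each region and no header, score, count or p-value. The submitters' processing notes name Bowtie2 2.0.6 and hg19. For the peak caller, threshold, control and depth nothing is given in the sources used here, so detection limits could not be derived. Coordinates are printed as deposited.

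Groups came from the sample titles. Members, segments and motifs were chosen with earlier results of these data known. Chromosome 6 was taken from the first to the last region of the 3 lists, gaps included. Regions were shared at 1 bp of overlap. Shares have 95% exact binomial (Clopper-Pearson) intervals and densities exact Poisson intervals. Density ratios use the binomial interval of the share, and medians the binomial interval of ranks. Named regions were all ETS2 members, and of the knockout ZMYND11 members those shared, the first 10 and last 3 by place, and the outermost of each segment; also named is the ZMYND11 region of place 593, chosen after its position was seen. Promoter entries were 1 per gene, the first in the table. Alternatives concerned the window, the comparison segment, the overlap rule and the part of the list used. The overlap and membership steps were tested on simulated data. Python 3.11.15, numpy 2.4.6, pandas 2.3.3, scipy 1.17.1 and matplotlib 3.10.9 were used.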

Additional observations from a re-analysis of the deposited data

How the results depend on the processing

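Of 24 alternative values for 8 results, 20 stayed within the 95% interval of the main value. Some of the 24 could not move, since all 9 ETS2 members lay in the outer parts. These were the median place and sharing of ETS2 members without the middle part, and the ETS2 split over the first 50% of the list. A further 14 values for 3 results were fixed at 0, since no parental region lay in the window, and are no check of stability. The density ratio of knockout ZMYND11 was 6.86 in the main analysis. It rose to 10.2 over the first 50% of the list, to 34.7 over its first 536 regions and to 26.2 over its first 1020, the last 2 being chosen after seeing the data. With the ZMYND11 list shortened to the length of the ETS2 list, 7 of 13 knockout ZMYND11 members overlapped ETS2. This was 53.8%, against 15.9% of members without shortening, since shortening leaves the early members alone. The share over all regions of the shortened list was not computed, so the 53.8% is no result about the cluster. Outside the cluster the share was 29.5% within the first 10% of the knockout ZMYND11 list. Without 28 to 34 Mb, the density ratios were 9.0 for knockout ZMYND11 and 30.8 for ETS2. Without the middle part they were 7.65 and 31.6. The ETS2 ratio had to rise here, since the part left out held 0 ETS2 regions. Reciprocal overlap of 50% left 6 of the 7 shared regions. Results that need a parental member (its median place, its split and its sharing) gave no value. Library depth, which sets how many regions can be listed, was not known. No paired analysis was possible because each group had 1 library, and for the same reason no replicate could be left out.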
